A study of Sparus aurata with 8 samples.

Results

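The genes examined here encode the transport trains, the basal body and the centrosome from which a flagellum is built. They were chosen by name alone: a protein-coding feature of the gilthead seabream (*Sparus aurata*) count table was a member when its product name contained intraflagellar transport, Bardet-Biedl, Tectonic, Meckel, centrosomal, centrosome or centriol. This gave 39 features with 31 product names, out of 31501 protein-coding features and 197399 features in all, and no feature carried the name Tectonic. RNA-seq was done on haploid germ cells (HGC), which were taken from the testis with a cell sorter through a gate that holds spermatocytes II and spermatids, and on spermatozoa (SPZ_EJ) collected from the ejaculate after gentle pressure on the abdomen. All fish were captive adult males in the natural breeding season with no experimental treatment named, testis tissue was dissociated with collagenase, sperm was taken under sedation with phenoxyethanol, each group had 4 libraries, and each library came from a pool of 3 males. The libraries held 19865716 to 30645027 counts in HGC and 15395220 to 17886675 in SPZ_EJ.

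The parts of a growing cilium or flagellum are made in the cytoplasm and carried in by intraflagellar transport (IFT). In this system the IFT-B complex rides outward on kinesin-2, the IFT-A complex is needed for the return on cytoplasmic dynein 2, and the BBSome, built of Bardet-Biedl syndrome (BBS) proteins, links membrane cargo to the trains. The base is a centriole turned basal body, topped by the transition zone, a gate that controls what enters. Germ cells assemble the flagellum during spermiogenesis, and the mature spermatozoon keeps its centrioles while it sheds most of its cytoplasm.

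The RNAs of this machinery were far less abundant in SPZ_EJ than in HGC. Of the 39 members, 36 had enough counts for edgeR's quasi-likelihood test, and 35 of these were lower in SPZ_EJ, none was higher and 1, *cep290*, was not called. A member was called when its p, adjusted by Benjamini-Hochberg over all features, was below 0.01 and its log2 fold change lay beyond 1 in either direction. By the same rule 31.9% of the tested protein-coding features were lower in SPZ_EJ and 23.9% were higher. For 34 of the 36 members every SPZ_EJ library lay below every HGC library, against 38.0% of protein-coding features. The adjusted p of the 35 called members ran from 1.44e-06 to 0.00926 in edgeR's test. Fold changes were large: the median log2 fold change was -5.01 over the tested members and -0.29 over the 15302 tested protein-coding features, and 18 members lay below -5, where 5.46% of protein-coding features lay. These counts and medians are descriptions, and no test was made of the members as a list.

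**Figure D1:**
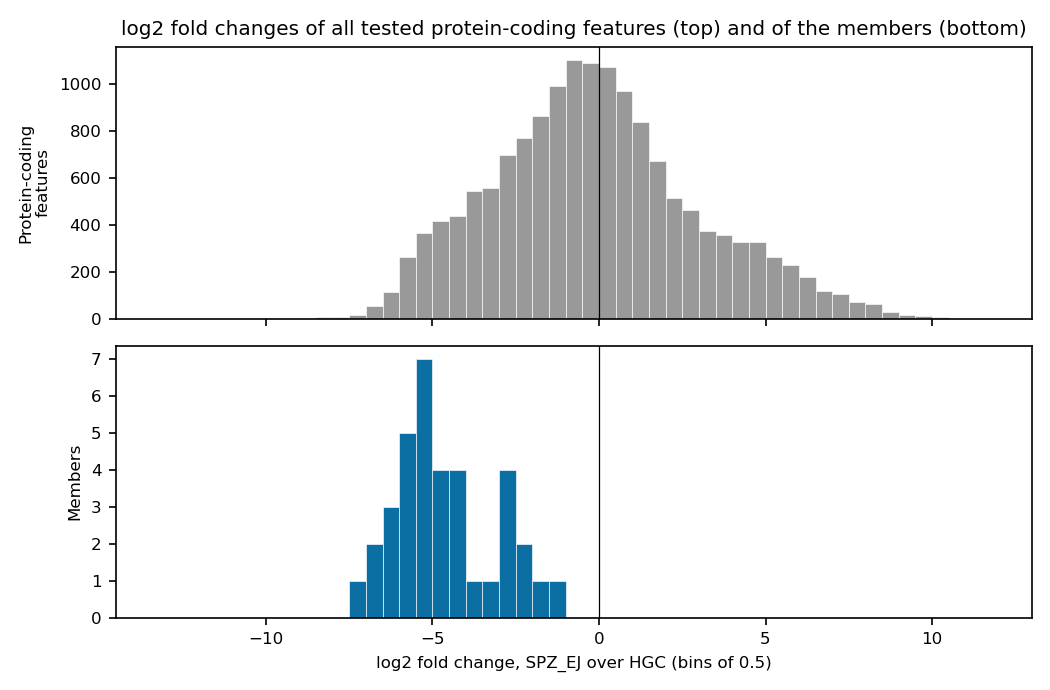
Number of features (y axis) by log2 fold change of SPZ_EJ over HGC (x axis, bins of 0.5) for the 15302 tested protein-coding features (top) and the 36 tested members (bottom). The members all lie left of -1, with a median of -5.01, while the protein-coding features spread to both sides of 0 with a median of -0.29.

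As a share of all counts in a library, with no other scaling, the 39 members together held 0.753%, 0.716%, 0.787% and 0.703% in the HGC libraries, and 0.0527%, 0.0376%, 0.0416% and 0.0458% in the SPZ_EJ libraries, each in the order of the replicate numbers as throughout. The HGC libraries were close to one another and all lay far above SPZ_EJ. In CPM, counts brought to a common library size by TMM scaling and the unit of every level given from here on, their sum was 9512 ± 1324 (SD, n = 4) in HGC and 364 ± 53.7 in SPZ_EJ, a 26.2-fold difference. A CPM value is not divided by transcript length, so levels are compared between groups within a gene and not between genes. All levels are shares of the RNA in a library. The measurement cannot tell fewer cells of a type from less RNA per cell.

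**Figure D2:**
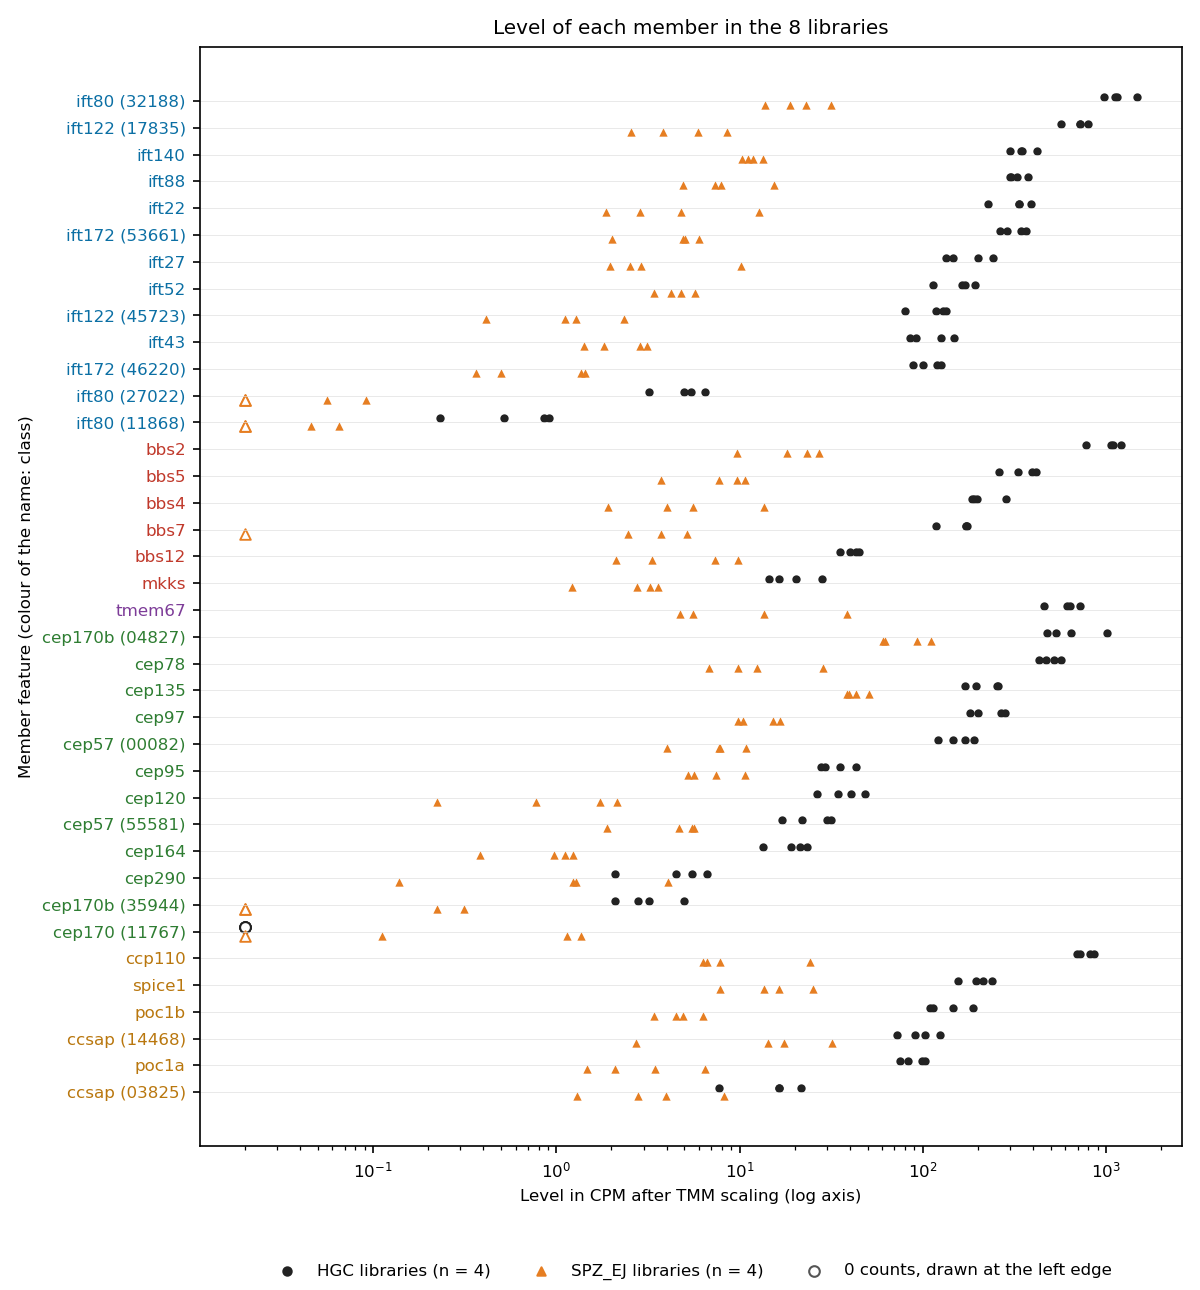
Level of each member with any count in each of the 8 libraries (x axis, CPM after TMM scaling, log axis; circles HGC, triangles SPZ_EJ; open symbols at the left edge mark 0 counts), ordered by class and total count. The groups are separated for nearly all members, overlap for *cep290* and one *ccsap* feature, and the untested *cep170* feature has counts in SPZ_EJ only.

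The IFT-A complex was represented by 4 features. *ift122*, a core IFT-A subunit, had the lowest fitted log2 fold change of all members. Its main feature, Saurata1B017835, measured 721, 718, 794 and 571 CPM in HGC and 5.95, 8.58, 2.57 and 3.84 CPM in SPZ_EJ. HGC was thus uniformly high and each SPZ_EJ pool was near the bottom of the range, a 134-fold difference in means (log2 fold change -7.07 with an SE of 0.47, and an adjusted p of 1.47e-06 in edgeR's quasi-likelihood test). Ranked from the lowest, this was fold change 37 among the 15302 tested protein-coding features. A second feature of the same name, Saurata1B045723, gave 115 ± 24.1 CPM in HGC and 1.29 ± 0.796 in SPZ_EJ, with a log2 fold change of -6.50. *ift140*, another core subunit, kept more: 419, 341, 349 and 298 CPM in HGC stood against 13.4, 11.8, 11.2 and 10.3 CPM in SPZ_EJ. The SPZ_EJ pools were unusually alike for this gene, and the difference was 30.1-fold (log2 fold change -4.91, SE 0.29, edgeR adjusted p = 1.44e-06). *ift43*, a small peripheral subunit, was lower as well, at 113 ± 29.5 CPM in HGC and 2.30 ± 0.814 in SPZ_EJ, with a log2 fold change of -5.62.

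The IFT-B complex was represented by 9 features, of which 8 were tested and all 8 were lower in SPZ_EJ. The most counted of them, the *ift80* feature Saurata1B032188, measured 1481, 1121, 1153 and 973 CPM in HGC and 22.9, 31.6, 18.8 and 13.8 CPM in SPZ_EJ. No library of one group came near the other (54.2-fold, log2 fold change -5.76, SE 0.39, edgeR adjusted p = 1.47e-06). *ift172* encodes the largest IFT-B subunit, which sits at the periphery of the complex. Its feature Saurata1B046220 measured 118.9, 100.1, 125 and 88.4 CPM in HGC and 1.43, 1.36, 0.502 and 0.366 CPM in SPZ_EJ. It was 118-fold lower in SPZ_EJ (log2 fold change -6.87, SE 0.51, edgeR adjusted p = 1.78e-06), at place 55 from the lowest. The other *ift172* feature, Saurata1B053661, was 70.04-fold lower, from 315 ± 47.4 to 4.50 ± 1.73 CPM.

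The remaining IFT-B subunits were also lower in every sperm pool. *ift88*, whose loss in mouse leaves cilia and sperm tails unformed, was at 374, 299.7, 327 and 302 CPM in HGC and 4.91, 15.3, 7.36 and 7.95 CPM in sperm (log2 fold change -5.20). *ift52*, a scaffold of the core, went from 159.6 ± 32.9 to 4.54 ± 0.968 CPM (log2 fold change -5.13). For *ift22* and *ift27*, which encode small GTPases of the complex, SPZ_EJ replicate 2 stood above the other pools. *ift22* measured 4.80, 12.7, 2.85 and 1.87 CPM in SPZ_EJ, against 321 ± 68.3 CPM in HGC (log2 fold change -5.86, SE 0.62). *ift27* measured 2.89, 10.1, 2.51 and 1.97 CPM, against 181 ± 49.3 CPM (log2 fold change -5.38, SE 0.58). Without SPZ_EJ replicate 2 the values were -6.68 for *ift22* and -6.23 for *ift27*, so leaving out this pool made the fold more than 1.5 times larger in both.

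A pair of further features carry the name of *ift80* and were near the detection limit in sperm. Saurata1B027022 had 91, 94, 120 and 55 counts in HGC and 0, 0, 1 and 2 counts in SPZ_EJ. The ratio of its summed counts, scaled by library, was 139, with a 95% counting interval from 47.1 to 676 (edgeR adjusted p = 3.78e-05). The fitted log2 fold change was -6.88, and -7.67 without SPZ_EJ replicate 4, which held 2 of the 3 sperm counts. Saurata1B011868 had 12, 9, 22 and 4 counts in HGC and 0, 1, 0 and 1 in SPZ_EJ, too few for the test over all features. Its ratio was 27.2 (95% counting interval 7.12 to 231.03), and an exact permutation test over the 4 against 4 libraries, two-sided, gave p = 0.0286, the smallest it can give.

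**Figure D3:**
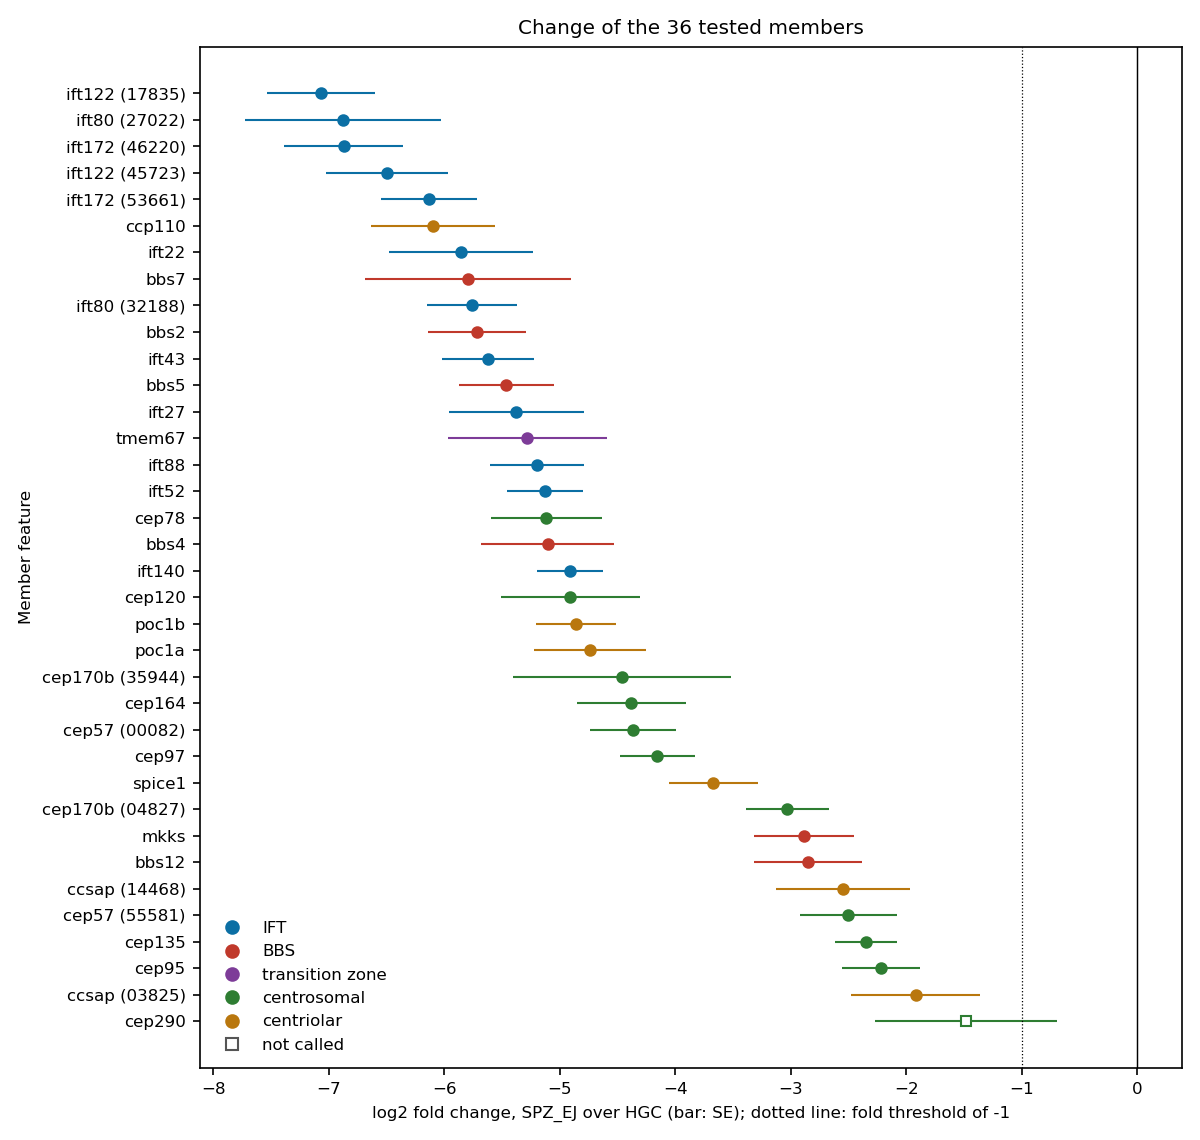
log2 fold change of SPZ_EJ over HGC (x axis, bars SE) of the 36 tested members, sorted and coloured by class, with the fold threshold of -1 as a dotted line. The ift122 and ift172 features and the ift80 feature Saurata1B027022, with 3 sperm counts in all, lie at the far left between -7.07 and -6.13. The main ift80 feature, Saurata1B032188, is at -5.76. The open symbol of *cep290* at -1.48 is the only member not called.

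BBS proteins fell into 2 levels. The BBSome subunits *bbs2*, *bbs4*, *bbs5* and *bbs7* were all lower in SPZ_EJ, with log2 fold changes from -5.80 to -5.11. *bbs2* was at 1202, 772, 1094 and 1063 CPM in HGC and at 18.1, 27.3, 23.4 and 9.73 CPM in SPZ_EJ (52.6-fold, log2 fold change -5.72, SE 0.42, edgeR adjusted p = 1.73e-06). *bbs5*, which encodes a subunit that binds membrane lipids, measured 396, 329, 412 and 262 CPM against 3.72, 10.7, 9.65 and 7.68 CPM. Both genes were low in each sperm pool without exception. *bbs7* measured 173, 173, 174 and 117 CPM in HGC and 2.47, 0, 5.19 and 3.75 CPM in sperm (log2 fold change -5.80, SE 0.89, edgeR adjusted p = 0.000172). The 0 counts of SPZ_EJ replicate 2 allow up to 0.195 CPM, which left this gene with one of the widest errors. In *bbs4* the same replicate was instead the highest, at 13.5 CPM against 4.00, 5.58 and 1.92 CPM in the other pools and 215 ± 45.7 CPM in HGC (log2 fold change -5.11, and -5.84 without it).

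The chaperonin-like proteins that help to assemble the BBSome, *bbs12* and *mkks* (known as BBS6 in humans), fell less. *bbs12* measured 35.2, 39.8, 45.1 and 43.1 CPM in HGC and 2.12, 3.31, 7.36 and 9.78 CPM in SPZ_EJ (7.23-fold, log2 fold change -2.85, SE 0.47, edgeR adjusted p = 0.000269). *mkks* was at 14.5, 16.4, 28.3 and 20.2 CPM in HGC and at 1.22, 3.57, 3.24 and 2.74 CPM in SPZ_EJ (7.37-fold, log2 fold change -2.89, SE 0.44). The groups did not overlap for either gene. Within a library, where no scaling enters, the BBSome subunits had 25.7 to 39.6 times the counts of these helpers in HGC and 1.84 to 8.46 times in SPZ_EJ.

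The transition zone was represented by *tmem67*, the Meckel syndrome gene that encodes meckelin, a membrane protein of the gate. It measured 722, 635, 614 and 458 CPM in HGC and 4.73, 38.7, 5.58 and 13.6 CPM in SPZ_EJ. Here SPZ_EJ replicate 2 was far above replicates 1 and 3, and the groups still lay apart (log2 fold change -5.28, SE 0.69, edgeR adjusted p = 5.60e-05). Without that pool the log2 fold change was -6.29. *cep290*, which links membrane and microtubules in the same zone and is named as a centrosomal protein, was the member that was not called. Its levels were 6.64, 2.08, 4.49 and 5.52 CPM in HGC and 0.139, 1.23, 4.07 and 1.28 CPM in SPZ_EJ. The groups overlapped through SPZ_EJ replicate 3 (log2 fold change -1.48, SE 0.79, edgeR adjusted p = 0.115), and without that pool the values were -2.42 and 0.0172. A difference in *cep290* was not detectable at this depth and spread.

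The caps of the centriole must come off before a cilium can grow. *ccp110*, which encodes the capping protein CP110, measured 863, 694, 815 and 717 CPM in HGC and 6.65, 24.3, 7.87 and 6.35 CPM in SPZ_EJ. It had the largest fall among the centriolar members, at 68.4-fold (log2 fold change -6.10, SE 0.54, edgeR adjusted p = 4.25e-06), and -6.83 on the log2 scale without SPZ_EJ replicate 2. Its partner *cep97* fell less, from 199, 267, 280.2 and 179.9 CPM to 10.4, 9.81, 15.2 and 16.5 CPM (17.8-fold, log2 fold change -4.15, SE 0.32). The sperm pools were close to each other for *cep97* and not for *ccp110*.

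Genes of centriole assembly and of the centriole wall covered a wide range. *cep135*, which encodes a structural part of the cartwheel and wall, measured 258, 170.2, 254 and 194 CPM in HGC and 39.8, 43.1, 38.6 and 50.7 CPM in SPZ_EJ. It was lower in each pool and by nearly the same amount (5.09-fold, log2 fold change -2.35, SE 0.27, edgeR adjusted p = 2.29e-05), and 19.6% of the HGC mean was left. *cep120*, needed for centriole elongation, went from 37.5 ± 9.15 to 1.22 ± 0.879 CPM (log2 fold change -4.91, SE 0.60). *spice1*, which encodes a centriole and spindle protein, measured 213, 195, 238 and 155 CPM in HGC and 7.80, 13.5, 16.3 and 25.2 CPM in sperm (log2 fold change -3.67, SE 0.39). *poc1a* and *poc1b*, a pair of wall proteins that keep the centriole stable, were lower by 26.8-fold and 29.1-fold. *cep78*, found at the wall of mature centrioles, was at 565, 471, 520.3 and 432 CPM in HGC and at 6.79, 28.5, 12.4 and 9.83 CPM in SPZ_EJ. Its pattern in sperm was again that of a single high pool, with a log2 fold change of -5.12 and of -5.72 without SPZ_EJ replicate 2.

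Genes of the centriole appendages fell by unequal amounts. The *cep170b* feature Saurata1B004827, related to the subdistal appendage protein CEP170, measured 1014, 473, 536 and 642 CPM in HGC and 111, 60.4, 93.5 and 61.9 CPM in SPZ_EJ. This was an 8.16-fold difference (log2 fold change -3.03, SE 0.36, edgeR adjusted p = 3.11e-05), and 12.2% of the HGC mean was left. A second *cep170b* feature, Saurata1B035944, was at 5.0, 2.78, 3.20 and 2.09 CPM in HGC and 0.313, 0, 0.223 and 0 CPM in sperm (log2 fold change -4.46, and -5.48 without SPZ_EJ replicate 1). *cep164*, a distal appendage protein required in mammals for docking the centriole to the membrane, went from 19.3 ± 4.30 to 0.927 ± 0.378 CPM (20.8-fold, log2 fold change -4.38). Both features named *cep170* itself had no count in any HGC library. Saurata1B046657 had none in sperm either, while Saurata1B011767 had 0, 21, 2 and 25 counts in SPZ_EJ replicates 1 to 4, or 0.655 ± 0.699 CPM. Set against 3 counts over the HGC group, its level in SPZ_EJ was at least 15.8-fold higher, but it was 0 in 1 sperm pool, it did not enter the test over all features, and an exact permutation test gave p = 0.143. The default test of DESeq2, which kept it, called it higher (log2 fold change 5.92, adjusted p = 0.00903), where 24.6% of protein-coding features were called higher.

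Among the pericentriolar and less well studied proteins, *cep57* had features that differed in their fall. Saurata1B000082 went from 157 ± 29.9 to 7.63 ± 2.80 CPM (log2 fold change -4.36) and Saurata1B055581 from 25.1 ± 6.84 to 4.44 ± 1.76 CPM (log2 fold change -2.5). *cep95* measured 27.7, 35.4, 43.0 and 29.2 CPM in HGC and 10.7, 7.47, 5.24 and 5.62 CPM in SPZ_EJ, so that 21.5% of the HGC mean was left (log2 fold change -2.22, SE 0.34, edgeR adjusted p = 0.000168). With scaling by library size alone the value was -1.45 with an adjusted p of 0.0118, and it was then not called. *ccsap*, which encodes a protein of centrioles, cilia and spindles, was uneven among the sperm pools. Its feature Saurata1B014468 measured 90.4, 103, 124 and 72.0 CPM in HGC and 2.71, 17.5, 32.1 and 14.3 CPM in sperm (log2 fold change -2.55, SE 0.58, edgeR adjusted p = 0.00219). The other, Saurata1B003825, was at 21.7, 7.76, 16.4 and 16.3 CPM in HGC and 8.25, 1.3, 2.79 and 3.98 CPM in SPZ_EJ, with overlap between SPZ_EJ replicate 1 and HGC replicate 2. Its call (log2 fold change -1.92, SE 0.56, edgeR adjusted p = 0.00926) was the least firm of the 35. It was lost in 11 of 18 other fits, with adjusted p from 0.0116 to 0.181. It was -2.69 on the log2 scale without SPZ_EJ replicate 1, and the call was lost without SPZ_EJ replicate 2, 3 or 4 or HGC replicate 1, 3 or 4.

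Summed by complex, the share left in sperm ran from about 1% to about 20% of the HGC mean. IFT-A RNAs stood at 1.74%, 2.02%, 1.39% and 1.25% of the HGC mean in SPZ_EJ replicates 1 to 4, and IFT-B RNAs at 1.83%, 3.16%, 1.56% and 1.25%. The BBSome subunits stood at 1.61%, 2.93%, 2.5% and 1.31%, the members named as centriolar at 2.39%, 4.95%, 5.02% and 4.65%, and those named as centrosomal at 9.86%, 8.81%, 9.82% and 8.65%. In each sperm pool more of the HGC level was left for the centrosomal than for the IFT members. The helpers *bbs12* and *mkks* together stood at 5.51%, 11.4%, 17.5% and 20.6%. The centrosomal sum rests largely on *cep170b* and *cep135*, whose levels in sperm were 81.6 ± 24.7 and 43.0 ± 5.45 CPM of a sum of 176 ± 12.3 CPM.

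A ratio within a library gives the same contrast without any scaling. The summed counts of the IFT members were 1.93, 2.25, 2.17 and 1.87 times those of the centrosomal members in HGC, and 0.374, 0.647, 0.314 and 0.295 times in SPZ_EJ. The HGC libraries all lay above the SPZ_EJ libraries. Without *cep170b* Saurata1B004827 and *cep135*, left out after their values were seen, the ratios were 3.67 to 4.21 in HGC and 0.944 to 1.92 in SPZ_EJ, so the groups still lay apart but 3 of the 4 sperm pools were above 1. The 2 transport complexes did not part in this way: IFT-A had 0.451 to 0.523 times the counts of IFT-B in HGC and 0.315 to 0.493 times in SPZ_EJ. These ratios are descriptions of chosen groups of genes and carry no test. The RNA of SPZ_EJ was of low integrity and that of HGC of high integrity in the study's quality control, and the libraries were primed at the poly(A) tail, so integrity moved with the groups and the 2 cannot be told apart.

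**Figure D4:**
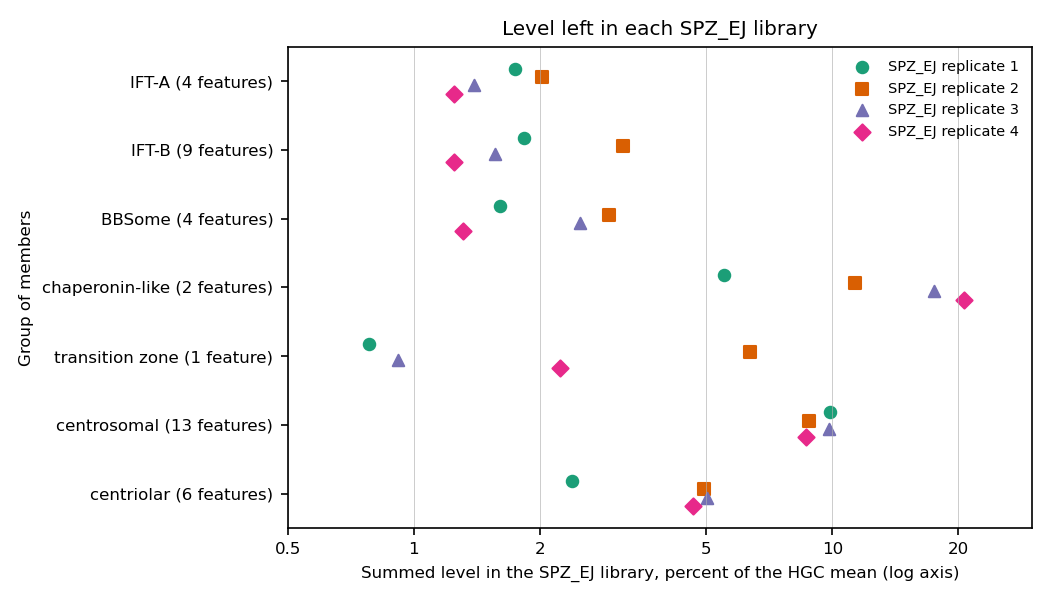
Summed level of each group of members in each SPZ_EJ library as a percentage of the HGC mean (x axis, log axis; 1 symbol per SPZ_EJ replicate). IFT-A, IFT-B and BBSome lie between 1.25% and 3.16%, centrosomal members between 8.65% and 9.86%, and the single transition zone gene *tmem67* has SPZ_EJ replicate 2 apart from the rest.

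Features that share a product name kept or changed their proportion. The weaker *ift122* feature had 14.0% to 17.8% of the counts of the stronger in HGC and 10.7% to 50% in SPZ_EJ, and the weaker *ift172* feature 32.5% to 36.6% in HGC and 10% to 29.1% in SPZ_EJ. For *cep57* the share was 10.1% to 25.9% in HGC and 43.1% to 73.4% in SPZ_EJ. For *cep170b* it was 0.326% to 0.597% in HGC and 0% to 0.283% in SPZ_EJ, and for the tested *ift80* pair 0.328% to 0.486% and 0% to 0.662%. The shares did not overlap between groups for *ift172* and *cep170b*, which were lower in SPZ_EJ, and for *cep57*, which was higher. In sperm the weaker *cep170b* feature had only 9, 0, 4 and 0 counts, and the part of counting error in its shares was not tested. For *ccsap* the share was 7.53% to 24.0% in HGC and 7.41% to 304% in SPZ_EJ. There the normally weaker feature had more counts than the stronger in replicate 1 alone. Whether such features are separate genes or pieces of 1 gene was not tested, and reads of near-identical copies may have been split between them. With the counts of each product name summed, 29 of 30 tested names were lower in SPZ_EJ.

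The sperm pools varied more than the HGC pools. Among the 32 members with a mean of at least 20 counts in each group, the SD of log2(CPM + 1) was larger in SPZ_EJ for 26, with a median SD of 0.61 in SPZ_EJ and 0.29 in HGC. The share over all features was not computed, so this is not shown to be particular to the members. In the study's principal component analysis the SPZ_EJ replicates also lay further apart than the HGC replicates. The members had fewer counts in SPZ_EJ, and the part of counting error in these SDs was not tested. Of the 36 tested members, the highest SPZ_EJ level was in replicate 2 for 16, in replicate 4 for 9, in replicate 1 for 7 and in replicate 3 for 4. Among the 12 tested IFT members replicate 2 was highest for 8. In HGC the lowest level was in replicate 4 for 23 of the 36 members. These counts by replicate rest on TMM-scaled levels, and the shares over all features were not computed. As an unscaled share of all counts the 39 members were instead highest in SPZ_EJ replicate 1 (0.0527%) and lowest in replicate 2 (0.0376%).

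Other genes listed for the same apparatus, gathered by product name, had lower levels in SPZ_EJ for the most part. Over all tested protein-coding features 31.9% were lower and 23.9% were higher by the same rule. Of the 6 motor features of IFT, 4 were lower. The kinesin-2 subunit Kinesin-associated 3 (Saurata1B036061) went from 99.6 ± 28.3 to 1.99 ± 0.859 CPM (log2 fold change -5.65, SE 0.44, edgeR adjusted p = 2.16e-06), while a second feature of that name went from 9.18 ± 3.25 to 4.20 ± 2.15 CPM and was not called (log2 fold change -1.13, edgeR adjusted p = 0.0491). WD repeat-containing 34, an intermediate chain of cytoplasmic dynein 2, had a log2 fold change of -5.03. Of 6 tested features listed under transition zone and nephrocystins 5 were lower, with Nephrocystin-1 at 322 ± 51.3 CPM in HGC and 9.33 ± 2.25 in SPZ_EJ (log2 fold change -5.11). Coiled-coil and C2 domain-containing 1B (log2 fold change -4.38, lower) and 1A (not called) were caught by words shared with Coiled-coil and C2 domain-containing 2A. Their place in this list rests on those words alone. The axoneme, the microtubule core of the tail, had 29 of 34 tested features lower and none higher, with a median log2 fold change of -4.67. The axonemal Dynein assembly factor 1, which helps to assemble dynein arms in the cytoplasm, fell the furthest of these, from 1614 ± 231.02 to 16.3 ± 8.23 CPM (log2 fold change -6.63, edgeR adjusted p = 1.52e-06).

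Genes of centriole duplication and the pericentriolar material were lower for 9 of 10 tested features, but by less, with a median log2 fold change of -2.37. PLK4, the kinase that starts centriole duplication, had the largest fall, at 348 ± 69.0 CPM in HGC and 10.1 ± 2.81 in SPZ_EJ (log2 fold change -5.10, edgeR adjusted p = 1.47e-06). A Gamma-tubulin complex component 3 feature (Saurata1B039467) came next, with a log2 fold change of -4.23. Ninein, a protein of the subdistal appendages, had too few counts for the main test, with 0, 1, 0 and 0 counts in HGC and 12, 33, 2 and 58 in SPZ_EJ. Some other fits called it higher in SPZ_EJ, as given below. Of 8 tested features listed as ciliary small GTPases and adaptors 4 were lower and 1 was higher. The shares over all tested protein-coding features were 31.9% and 23.9%. The lower ones were ADP-ribosylation factor 13B, features named ADP-ribosylation factor 3 and a Tubby-related 4 feature. Apart from 13B, the place of the features in this list rests on words in their names alone. ADP-ribosylation factor 13B, a GTPase of the ciliary membrane, went from 787 ± 162 to 36.1 ± 11.3 CPM (log2 fold change -4.45). An ADP-ribosylation factor 6 feature (Saurata1B056401), of a GTPase better known from endocytosis and the actin cortex, rose, with 8.58 ± 2.74 CPM in HGC and 98.8 ± 28.8 CPM in sperm (log2 fold change 3.52, SE 0.38, edgeR adjusted p = 1.40e-05). The rise was not shared by the other tested features of that name, which had negative fold changes and were not called. Saurata1B042088 had a log2 fold change of -0.601 (edgeR adjusted p = 0.0535) and Saurata1B024794 one of -2.53 (edgeR adjusted p = 0.0388).

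**Figure D5:**
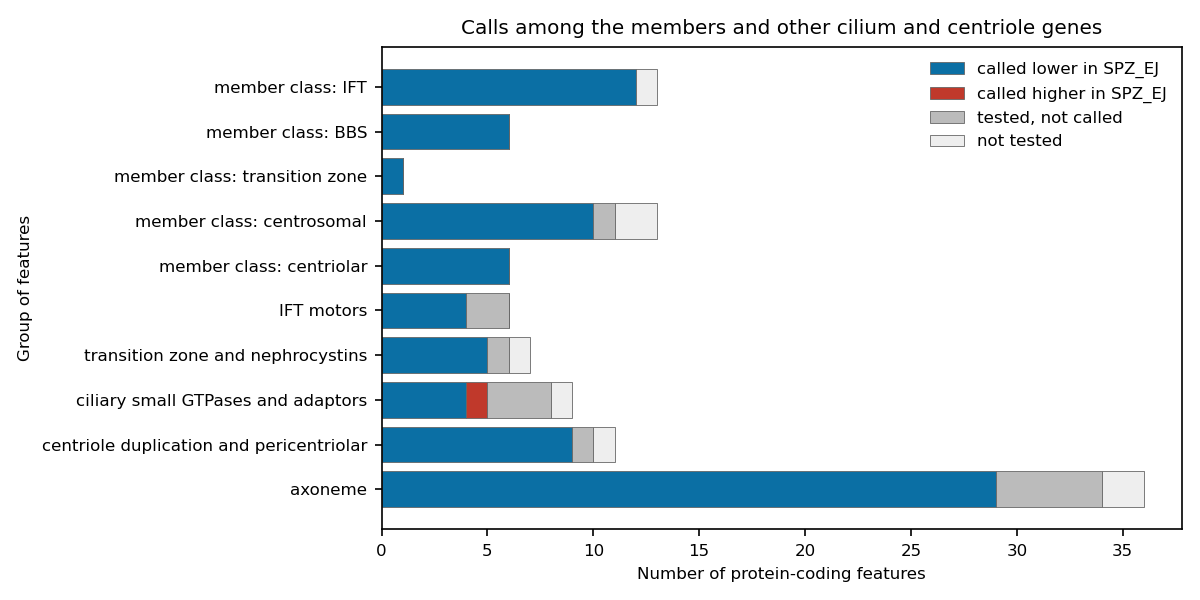
Number of protein-coding features (x axis) that were lower in SPZ_EJ, higher, not called or not tested. Bars show each class of members and each other group of cilium and centriole genes (y axis). Over all their classes the members have 35 lower and 1 not called, the axoneme has 29 lower of 34 tested, and the ciliary small GTPases and adaptors hold the single rise.

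Among markers of cell types, the sums of the leukocyte and the meiosis and spermatid lists lay apart between the groups. Those of the duct epithelium, testis somatic and erythrocyte lists overlapped, for duct epithelium through Mucin-2 alone. By the same rule for a call, 31.9% of tested protein-coding features were lower in SPZ_EJ and 23.9% were higher. Of 29 tested leukocyte features 26 were higher in SPZ_EJ, and the 2 that were lower are both regulatory factor RFX1, caught by the words MHC class II in its name. Without RFX1 the summed leukocyte level was 570 to 727 CPM in HGC and 4116 to 9448 in SPZ_EJ, highest in replicate 1. The 4 features without a count in HGC were class II histocompatibility chains, and 1 of them had no count in SPZ_EJ either. Duct epithelium features were higher for 10 and lower for 5 of 33 tested. Their sums were 1001 to 1519 CPM in HGC and 1023 to 2136 in SPZ_EJ. Most of each HGC sum was Mucin-2, at 1194, 1117, 1169 and 779 CPM. In SPZ_EJ it held 99.1, 69.6, 61.7 and 63.0 CPM, so the overlap of the sums rests on this gene. The 5 lower features were Mucin-2, at 1065 ± 193 CPM in HGC and 73.3 ± 17.5 in SPZ_EJ, Cadherin-10, Cadherin-15, Cadherin-18 and Protocadherin-15. Like some of the higher ones, these cadherins were caught by the word cadherin-1 within a longer name. Cadherin-1 itself went from 0.844 ± 0.610 to 26.5 ± 16.2 CPM and a Keratin, type I cytoskeletal 18 feature (Saurata1B045583) from 3.59 ± 3.76 to 513 ± 144 CPM. Testis somatic features were higher for 1 of 5, with sums of 7.64 to 21.7 CPM in HGC and 10.9 to 20.4 in SPZ_EJ. Erythrocyte features were higher for 1 and lower for 5 of 8, and the 1 that was higher is Nuclear factor erythroid 2-related factor 2, caught by the word erythroid. Without the nuclear factors of that name, 3 of 5 tested features were lower and none higher, with sums of 23.4 to 683 CPM in HGC and 10.7 to 26.5 in SPZ_EJ. Meiosis and spermatid features were lower for 8 of 10, with sums of 3602 to 5705 CPM in HGC and 111 to 272 in SPZ_EJ. Over the sperm pools the leukocyte sum in CPM was highest in replicate 1 and lowest in replicate 4. This order also rests on TMM scaling, and the unscaled leukocyte shares were not computed. The IFT sum in CPM was highest in replicate 2 and lowest in replicate 4, an order that depends on the scaling. As an unscaled share of all counts the IFT members held 0.0113%, 0.00929%, 0.00656% and 0.00687% in SPZ_EJ replicates 1 to 4, with the highest in replicate 1. Without SPZ_EJ replicates 1 and 2, which had the highest leukocyte sums in CPM, 36 of 37 tested members were lower. In that fit 32.8% of protein-coding features were lower. The remaining sperm pools still had leukocyte sums of 4116 and 5665 CPM. The part of these cells in the level of any member was not tested.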

How the data were processed

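RNA-seq was done in 4 HGC and 4 SPZ_EJ libraries, made without strand information by oligo-dT priming and PCR. The authors aligned reads with STAR 2.5.3a to a re-annotated reference, estimated expected counts per gene with RSEM 1.3.0, and deposited these expected counts as whole numbers, not normalized. No other unit was used. Libraries were grouped by their labels. They held 15395220 to 30645027 counts, and intervals (95%, exact binomial) and the floor of 3 counts cover counting error only. That the pools are of different males is stated for each group, so p-values measure the spread between pools.

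The groups were compared with edgeR 4.0.16 in R 4.3.3, by its quasi-likelihood test after filterByExpr and TMM, and p-values were adjusted by Benjamini-Hochberg over the 21375 features kept. The threshold for a call was 0.01 for the adjusted p together with a log2 fold change past 1 either way. The SE was taken as the size of the log2 fold change over the root of F. Exact permutation tests over libraries were two-sided, with a smallest p of 0.0286. On simulated counts with known changes the fit was tested before use. These counts had HGC means, changes of a single size and an upper limit on the spread between libraries. They therefore do not show how the fit performs at the spread of the SPZ_EJ pools. Tables and plots were made in Python 3.11.15 (matplotlib 3.10.9, pandas 2.3.3, scipy 1.17.1, numpy 2.4.6). Alternatives also used limma 3.58.1 and DESeq2 1.42.0.

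The members, the lists of other genes and the markers were chosen with earlier results of these data known. Named by rule were, per class, the called members without overlap that changed the most and those with the most counts; all other members are given so that each is accounted for. Gene symbols were assigned from product names. Sequences, transcript lengths and coordinates were not used here, so the planned descriptions of protein length and promoter motifs were not run. Alternatives were 3 other scalings, 2 other filters, DESeq2, limma-voom, a looser and a fold-free threshold, the fit without the 20 most abundant features, a replicate block and omission of each library. Summing members of 1 product name, omitting SPZ_EJ replicates 1 and 2, and a ratio without 2 centrosomal features were added after seeing the data.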

Additional observations from a re-analysis of the deposited data

Results flagged for a closer look

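For each member with at least 20 counts in a group, the highest and lowest library there was compared with the other libraries of that group. The measure was Dixon's ratio, the gap to the nearest library divided by the range. Of 72 member and group pairs, 4 exceeded the 95% critical value for 4 samples, and chance alone flags about 1 in 20. *ccp110* was at 24.3 CPM in SPZ_EJ replicate 2, with the other sperm pools at 6.35 to 7.87 CPM (ratio 0.916). *ift27* was at 10.1 CPM in the same pool, with the others at 1.97 to 2.89 CPM (ratio 0.887). *bbs4* was at 283 CPM in HGC replicate 3, with the others at 186 to 198 CPM (ratio 0.878). *bbs7* was at 117 CPM in HGC replicate 4, with the others at 173 to 174 CPM (ratio 0.969). For all 4 genes the groups stayed apart with these libraries included.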

How the results depend on the processing

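The count of members lower in SPZ_EJ was 33 of 36 at the least, with library size only, and 34 members kept their call in all 18 alternative fits. The exceptions were *cep95* with library size only and the *ccsap* feature Saurata1B003825, both given above. The fold change of no tested member changed sign. The median log2 fold change of the tested members, -5.01, was -4.84 with DESeq2 size factors, -4.26 with library size only, -4.64 with upper quartile scaling, -5.42 with no filter and -5.34 with limma-voom, and lay between -5.32 and -4.89 with single libraries left out. Library size only moved the median of all features by 0.73 on the log2 scale, and the median of protein-coding features was then 0.46. DESeq2 called 1 member higher, *cep170* Saurata1B011767, and 1 feature of the centriole duplication list, Ninein, which was 0 to 1 higher with single libraries left out. With a mean of at least 100 counts, 16 of 19 members had the larger SD in SPZ_EJ. With the replicate number as a block, 35 of 36 members were lower. Same-numbered libraries correlated in their deviations by 0.12, 0.02, 0.01 and 0.08, so the numbers were not taken to pair the pools, and 2 of 4 HGC libraries correlated best with their own number. Low counts kept both *cep170* features and *ift80* Saurata1B011868 out of the test. Descriptions by protein length and promoter motif were not run.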

Other observations

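The RFX factors, some of which bind promoters of many ciliary genes in vertebrates, were looked at after values had been seen. Of 8 tested RFX features 6 were lower in SPZ_EJ, 1 was higher and 1 was not called, with a median log2 fold change of -4.20. By the same rule 31.9% of tested protein-coding features were lower and 23.9% were higher. Besides RFX2 and RFX3, the lower ones were features of RFX5 and of RFX1, which is named as an MHC class II regulatory factor. RFX3, a regulator of ciliary genes in mouse, went from 136 ± 25.7 CPM in HGC to 1.81 ± 0.925 in SPZ_EJ (log2 fold change -6.21, edgeR adjusted p = 1.71e-06). RFX2, needed for spermatid differentiation in mouse, went from 402 ± 135 to 10.3 ± 2.39 CPM (log2 fold change -5.28). RFX6 was the one that rose, from 0.455 ± 0.186 to 3.84 ± 1.503 CPM (log2 fold change 3.07, edgeR adjusted p = 0.000626). FOXJ1-A, named for the forkhead factor of motile cilia, had 7, 9, 3 and 2 counts in HGC and 0, 0, 4 and 1 in SPZ_EJ, too few for the test. FOXJ1-B went the other way, with no count in HGC and 0, 8, 3 and 2 in SPZ_EJ, and was not tested either.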
